A study of Mus musculus with 6 samples.

Results

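The genes described here were 37 genes of fatty acid uptake and oxidation, taken by symbol from the 55376 genes that the deposited tables list. The list was made of names and used no measured value, and all 37 were found. The measurement was RNA immunoprecipitation followed by sequencing (RIP-seq), which pulls an RNA-binding protein out of a cell lysate with an antibody and sequences the RNA that comes with it. Libraries of 3 groups were compared, 2 in each, all from freshly isolated muscle stem cells (satellite cells) of C57BL/6 mice aged 3 months. The first group was precipitated with anti-CPEB1 (CPEB1 IP), the second with the control antibody anti-IgG (IgG), and the third was RNA of the lysate with no antibody (input). The labels give no allele or treatment for any library, and the cells were sorted as CD31-, CD45-, Sca1- and Vcam1+. By the methods of the study, each immunoprecipitation used 1000000 cells, and the 2 libraries of a group came from independent experiments.

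Fatty acids enter a cell with the help of the membrane protein CD36 and are carried in the cytosol by fatty acid-binding proteins. Acyl-CoA synthetases activate them, the carnitine shuttle moves long chains into mitochondria, and a repeated spiral of dehydrogenation, hydration, a further dehydrogenation and thiolysis shortens the chain and passes electrons to the respiratory chain through the electron transfer flavoprotein. Peroxisomes shorten very long and branched chains, and the PPAR nuclear receptors with their PGC-1 coactivators regulate transcription of the pathway. Quiescent satellite cells are known to rely largely on fatty acid oxidation and to turn to glycolysis on activation. CPEB1 binds U-rich cytoplasmic polyadenylation elements (CPEs) in the 3′ UTR of mRNAs and can repress or activate their translation.

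Counts on genes ranged from 1284716 in the shallowest IgG library to 4941653 in the deepest CPEB1 IP library, and the 37 genes together held 1868 to 9452 of them, or 0.138% to 0.205% of a library. Levels are given as CPM (the count divided by the library total, times 1000000) scaled by TMM over the 6 libraries, and per kilobase of exon (CPM per kb) where genes are compared with each other. Satellite cell markers summed to between 9739 and 13069 CPM, with none of the 9 at 0 in any library. Against input, 2 of the 9 were higher in CPEB1 IP (Chrdl2, Myod1) and 3 lower (Pax7, Cdh15, Calcr), beside 17% and 15.8% of all genes tested. In IgG, 1 was higher than input (Myod1) and 5 were lower, beside 21.4% and 19.4%. Pax7 differed from input by -1.84 in log2 for CPEB1 IP and -1.98 for IgG. Between CPEB1 IP and IgG, 5 of the 9 (55.6%) were higher (Vcam1, Cdh15, Calcr, Chrdl2, Myod1) and 0 lower, beside 14.7% and 18.7%. As a gauge of background signal, the 1434 olfactory and vomeronasal receptor genes, taken by name, held 602 and 536 CPM with anti-CPEB1, 3121 and 3262 CPM with anti-IgG, and 51.3 and 53.2 CPM without antibody. By this gauge the 3 groups did not overlap, with input lowest, CPEB1 IP well above it and IgG highest. For 14 of the 37 genes an exon overlaps an exon of another gene, and since no source used here says whether counting used strand, the counts of the 14 may include reads of the neighbour.

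Levels per length differed widely among the 37 genes, from the electron transfer flavoprotein at the top to the muscle isoform of carnitine palmitoyltransferase at the bottom. Etfa, the alpha subunit of the electron transfer flavoprotein, had the highest level per length among the 37 genes in each group, with means of 93.6 CPM per kb in CPEB1 IP, 63.0 in IgG and 86.6 in input. Acadl, the long-chain acyl-CoA dehydrogenase, was next in each group at 59.9, 36.0 and 54.7 CPM per kb. Their input values did not overlap, with 72.3 and 101 CPM per kb for Etfa against 50.4 and 59.0 for Acadl. Acadvl followed in input at 47.3 CPM per kb, where its higher library (50.2) lay just under the lower library of Acadl (50.4), a gap smaller than that between the 2 libraries of either gene.

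Within gene families the members were far from equal. Cpt1a, the carnitine palmitoyltransferase of most tissues, made up 71.7% of the input level per length of the Cpt1 family (Cpt1a, Cpt1b, Cpt1c), whereas the muscle isoform Cpt1b had 1, 0, 1, 2, 5, 1 counts in CPEB1 IP 1, CPEB1 IP 2, IgG 1, IgG 2, input 1 and input 2, the order used for counts below. The count of 0 in CPEB1 IP 2 allows a level of up to 0.619 CPM, the value of 3 counts in that library, counting error only. Acsl3 made up 59.8% of the input level of the 5 Acsl synthetases, and Ppard 94.1% of that of the 3 PPAR receptors. Fabp4, the adipocyte-type fatty acid-binding protein, held 53.5% of the input level of the 9 Fabp genes measured but 78.6% in CPEB1 IP and 77.8% in IgG. Its rank among the 37 genes moved with this, from 24 in input to 9 in CPEB1 IP and 3 in IgG. Cpt1b (rank 37 in each group), Ppara and Acsl6 had the lowest levels, and with Fabp3 and Cpt2 they were the 5 genes left untested between CPEB1 IP and IgG for low counts.

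**Figure D1:**
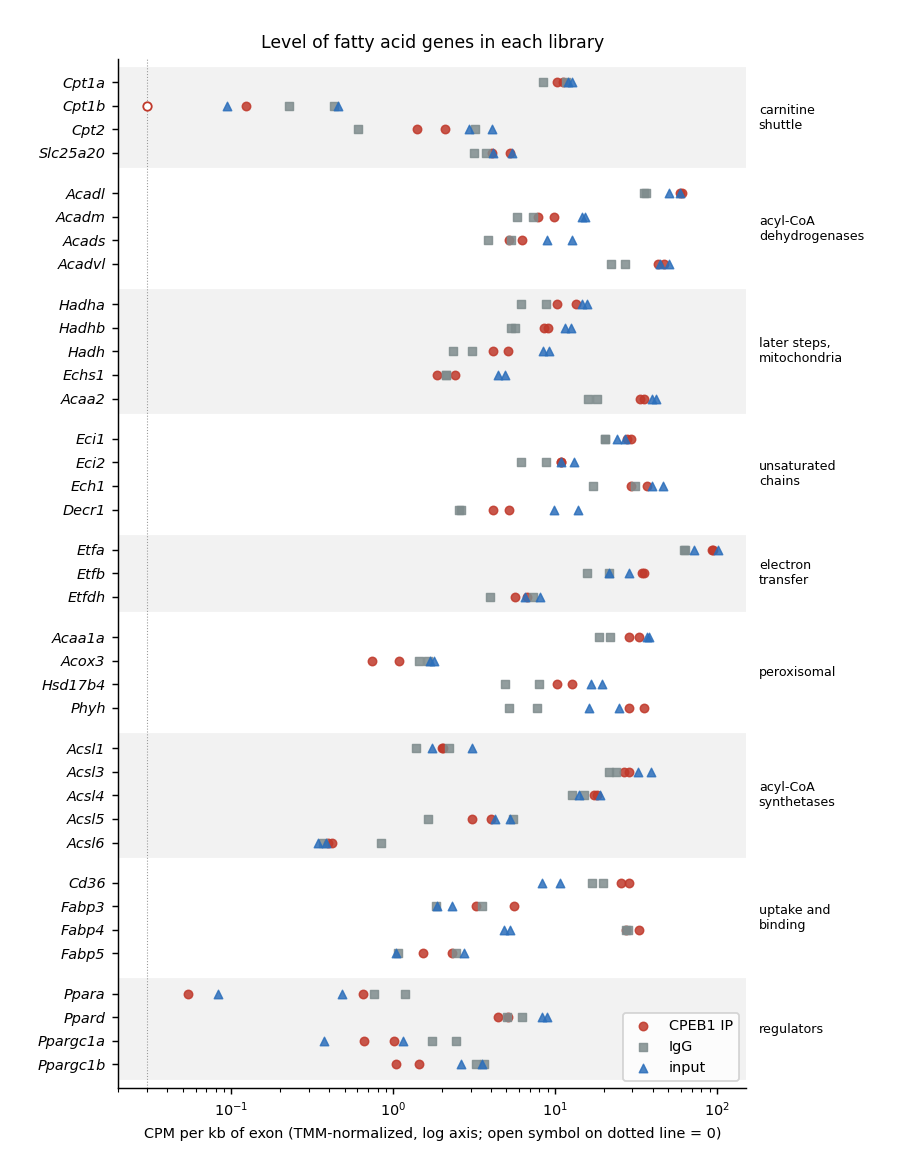
Level of each of the 37 genes in each library, in CPM per kilobase of exon on a log axis, arranged by role, with 1 symbol per library and a colour per group, and an open symbol at the lower edge marks a value of 0. Etfa is the highest gene in every group, the IgG symbols of most oxidation enzymes lie to the left of the others, and Fabp4 and Cd36 have their input symbols to the left of both precipitates.

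The comparison of CPEB1 IP with IgG sets a transcript's share of the CPEB1 precipitate against its share of the precipitate of a non-specific antibody. It compares shares and not amounts of RNA recovered. Of the 32 fatty acid genes tested, 11 (34.4%) were higher in CPEB1 IP than in IgG and 2 (6.25%) were lower, at an adjusted p under 0.05 in the quasi-likelihood test of edgeR, with p-values adjusted by Benjamini-Hochberg over 12124 genes. Over all genes tested, 14.7% were higher and 18.7% were lower. The 11 higher genes were Acadl, Acadvl, Hadha, Hadhb, Acaa2, Etfa, Etfb, Acaa1a, Hsd17b4, Phyh and Cd36, and the 2 lower genes were the coactivators Ppargc1a and Ppargc1b. The median log2 fold change was 0.40 over the 32 genes and -0.01 over all genes tested, with 26 of the 32 above 0. Of the 22 enzymes of oxidation and the carnitine shuttle that were tested, 10 were higher and 0 were lower, with a median of 0.53. Acox3 alone was lower at an unadjusted p under 0.05, and DESeq2 called 0 of them lower.

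The direction of genes that moved little depended on the scale. On the deposited FPKM, the median of all tested genes was itself shifted by 0.58 in log2 between CPEB1 IP and IgG, and the median of the fatty acid genes was 0.97, against 0.05 and 0.42 for ratios of mean CPM per kb with TMM. On the FPKM scale 29 of the 32 genes were above 0, and on the TMM scale of these ratios 27 were. With DESeq2 in place of edgeR 15 fatty acid genes were higher and 0 lower, while over all genes it called 2635 higher and 998 lower, against 1779 and 2265 with edgeR. Without a filter on low counts edgeR tested all 37 genes and called 18 higher and 0 lower. Over the 42045 genes then tested, it called 3513 (8.36%) higher and 2336 (5.56%) lower. Without CPEB1 IP 2, the deepest library, 6 were higher and 0 lower, with 1054 and 677 over all genes. Of the 11 higher calls, 5 held under each of the 9 alternatives run, namely Acadl, Acadvl, Acaa2, Etfa and Phyh. Of the 2 lower calls, 0 did.

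**Figure D2:**
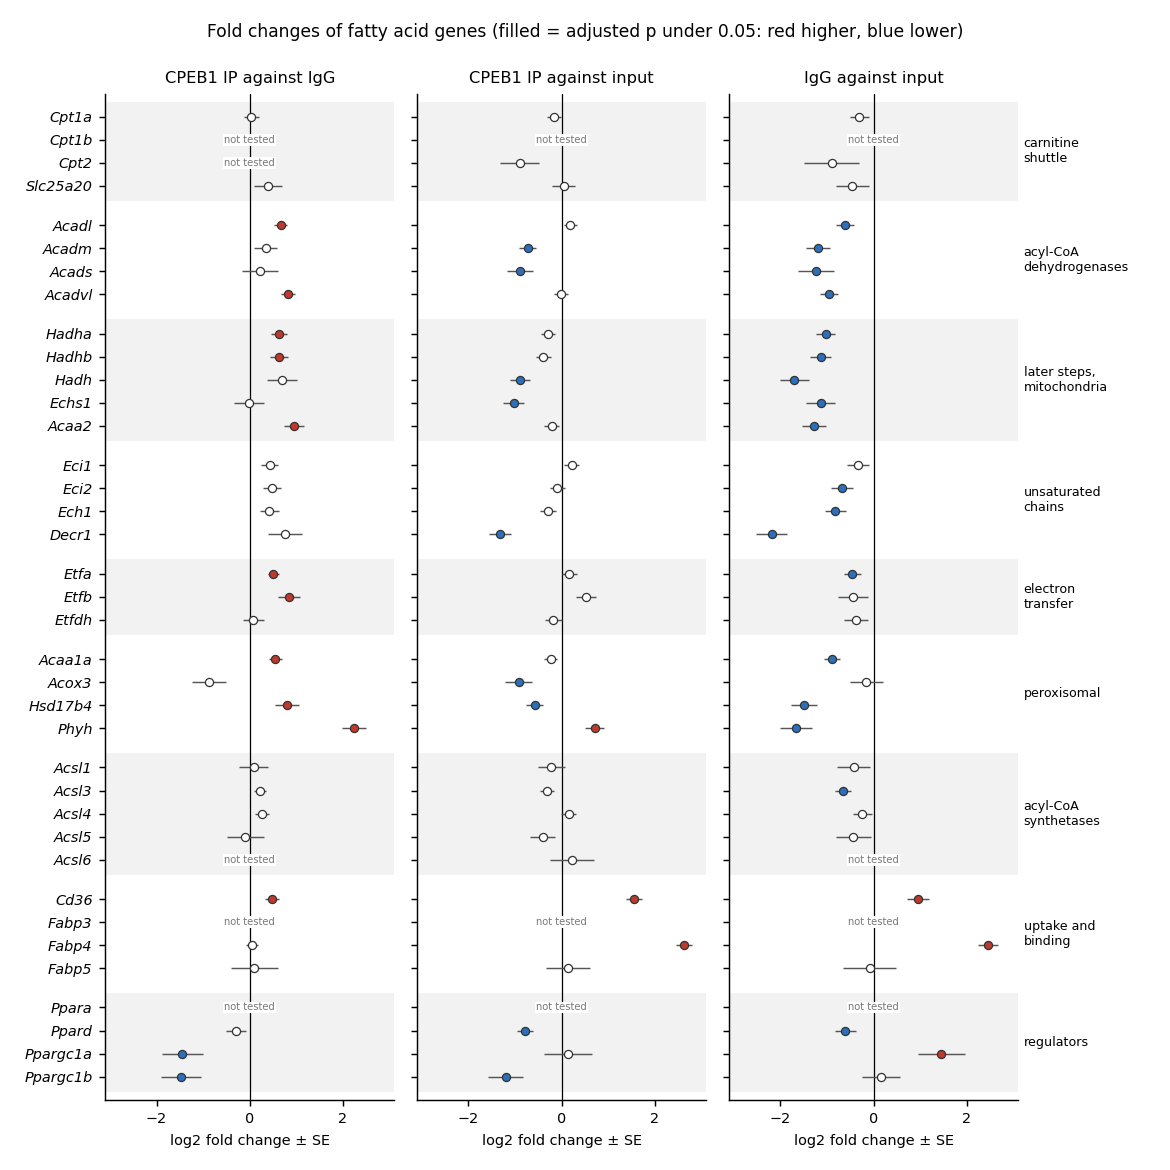
Log2 fold change of each of the 37 genes with its SE as a bar, in 3 panels for CPEB1 IP against IgG, CPEB1 IP against input and IgG against input, with the genes in the order of their roles. Filled red symbols are higher and filled blue symbols lower at an adjusted p under 0.05, open symbols did not pass, and genes with too few counts are marked as not tested. In the first panel 11 symbols are red and 2 are blue, in the second 3 and 9, and in the third 3 and 18.

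**Figure D3:**
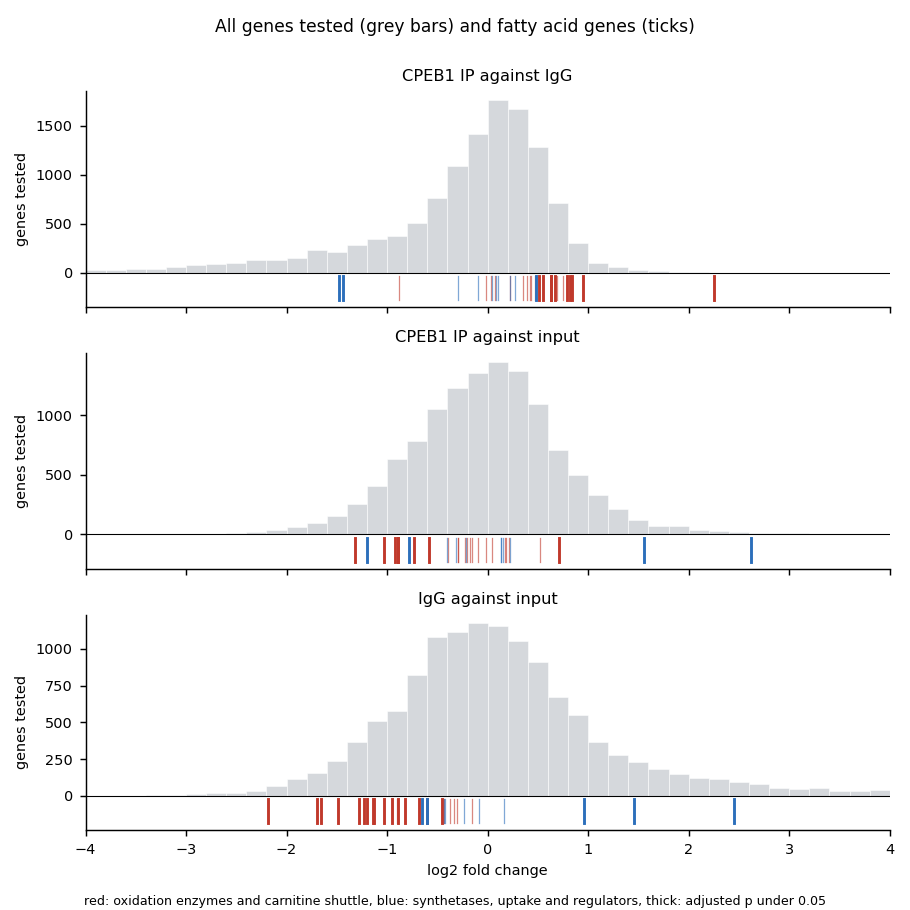
Histograms of the log2 fold change of the genes tested, 1 panel per comparison, in bins of 0.2 from -4 to 4. Between CPEB1 IP and IgG 12124 genes were tested, and 66 of them, below -4, are not drawn. Below each histogram is a tick for each tested fatty acid gene, 32 of them between CPEB1 IP and IgG. Red ticks are the oxidation enzymes and carnitine shuttle, blue ticks the synthetases, uptake genes and regulators, and thick ticks passed the test. In the panel of CPEB1 IP against IgG the oxidation enzymes lie mostly to the right of the centre of the histogram at a median of 0.53, and the tick of Phyh stands alone at 2.25.

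Of the acyl-CoA dehydrogenases, which make the double bond that opens each turn of the spiral, the long-chain enzymes Acadl and Acadvl were higher in CPEB1 IP than in IgG, and the medium- and short-chain enzymes Acadm and Acads did not pass the test. Acadl (chr1:66830839-66863277, minus strand) is shown first because its 3′ UTR carries 4 CPE motifs (all motifs searched are named further on), at chr1:66831312-66831341, chr1:66831195-66831224, chr1:66831147-66831176 and chr1:66830940-66830969 of build mm10. The windows are 30 bases of the RNA strand, 5′ to 3′, with the motif in capitals:
Acadl CPE 1: tggtaaagctggTTTTATgtatgattgtta
Acadl CPE 2: ggtataaccttTTTTCATgcatatacagtg
Acadl CPE 3: actgaagagccTTTTAATgtcttacttgtc
Acadl CPE 4: accccatgttTTTTAAAGTaatgaacagaa
Acadl was at 121 and 119 CPM with anti-CPEB1, 71.4 and 72.8 CPM with anti-IgG and 101 and 118 CPM in input. The CPEB1 IP values lay above both IgG values and at or just above the input values (log2 fold change 0.67 ± 0.14 (SE), adjusted p = 0.000866). Acadvl, the very long-chain dehydrogenase of the inner membrane, was at 115 and 126 CPM with anti-CPEB1, 72.2 and 59.7 CPM with anti-IgG and 135 and 119 CPM in input. Its IgG libraries were the low ones, and CPEB1 IP overlapped input (log2 fold change 0.82 ± 0.15 (SE), adjusted p = 0.00026). No CPE motif was found in the Acadvl 3′ UTR, whose annotated length is 113 bases, and its exons overlap those of Dvl2. Acadm lay 0.35 ± 0.25 above IgG in log2 (adjusted p = 0.306) and Acads 0.23 ± 0.39 (adjusted p = 0.698).

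The later steps of the mitochondrial spiral gave 3 higher genes of 5. Hadha and Hadhb encode the alpha and beta subunits of the mitochondrial trifunctional protein, which carries out hydration, the following dehydrogenation and thiolysis on long chains, and they lie head to head on chromosome 5. Hadha was at 90.0 and 117 CPM with anti-CPEB1, 76.7 and 53.9 CPM with anti-IgG and 128 and 138 CPM in input. CPEB1 IP was above IgG and below input (log2 fold change 0.63 ± 0.17 (SE), adjusted p = 0.0082), and the call was lost without CPEB1 IP 2 (adjusted p = 0.224) or without IgG 2 (adjusted p = 0.102). Hadhb was at 56.2 and 59.9 CPM with anti-CPEB1, 37.2 and 35.0 CPM with anti-IgG and 75.5 and 83.1 CPM in input. It had the same log2 fold change to 2 decimals, 0.63 ± 0.19 (adjusted p = 0.0136), a call lost without CPEB1 IP 1 (adjusted p = 0.0553) or CPEB1 IP 2 (adjusted p = 0.153). Acaa2, the mitochondrial thiolase of the last step, was at 53.3 and 50.8 CPM with anti-CPEB1, 27.3 and 24.0 CPM with anti-IgG and 60.5 and 63.9 CPM in input. Both CPEB1 IP values lay far above both IgG values and somewhat below input (log2 fold change 0.95 ± 0.21 (SE), adjusted p = 0.00175), and this call held under each alternative. Hadh, the dehydrogenase for short and medium chains, did not pass (log2 fold change 0.69 ± 0.32 (SE), adjusted p = 0.106), nor did the hydratase Echs1 at -0.02 ± 0.32 (adjusted p = 0.977).

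The 4 isomerases and reductases that let unsaturated chains enter the spiral all had positive differences, and 0 of the 4 passed edgeR's test, with 3 (Eci1, Eci2, Decr1) at an unadjusted p under 0.05 and 2 (Eci1, Eci2) called by DESeq2. Eci1 and Eci2, the enoyl-CoA isomerases, differed from IgG in log2 by 0.43 ± 0.18 (adjusted p = 0.069) and by 0.47 ± 0.19 (adjusted p = 0.0613). Ech1, which shifts double bonds, was at 0.42 ± 0.20 (adjusted p = 0.12). Decr1, the dienoyl-CoA reductase, was at 20.0 and 16.1 CPM with anti-CPEB1, 9.87 and 10.2 CPM with anti-IgG and 38.1 and 53.8 CPM in input. Its difference from IgG was 0.75 ± 0.36 (adjusted p = 0.117).

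The electron transfer flavoprotein takes electrons from the acyl-CoA dehydrogenases, and the RNAs of both of its subunits were higher in CPEB1 IP than in IgG. Etfa was the only one of the 11 higher genes with a CPE motif in the last 100 bases of an annotated 3′ UTR. This motif lies on the minus strand at chr9:55454577-55454606 (mm10), and the window is printed as above:
Etfa CPE 1: attatattcctTTTTAATTttttgtggttt
Etfa was at 170.0 and 174 CPM with anti-CPEB1, 116 and 115 CPM with anti-IgG and 133 and 185 CPM in input. The CPEB1 IP libraries were above both IgG libraries and within the range of input (log2 fold change 0.51 ± 0.12 (SE), adjusted p = 0.0024). Etfb, the beta subunit, was at 41.2 and 40.0 CPM with anti-CPEB1, 25.1 and 18.2 CPM with anti-IgG and 33.5 and 24.9 CPM in input. Its CPEB1 IP values were the highest of the 6 libraries (log2 fold change 0.84 ± 0.24 (SE), adjusted p = 0.0105), and the call was lost without IgG 2 (adjusted p = 0.072). Exons of Etfb overlap those of Etfbl and Mir7051, and its annotated 3′ UTR of 60 bases, the shortest of the 37, held no CPE motif. Etfdh, which hands the electrons on to ubiquinone, did not pass, at 0.08 ± 0.23 in log2 (adjusted p = 0.829), with 1 IgG library on each side of the CPEB1 IP values.

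Of the 4 carnitine shuttle genes, 2 had counts enough for the test between CPEB1 IP and IgG, and neither passed it. Cpt1a, which controls entry of long chains into mitochondria, was at 77.9 and 85.0 CPM with anti-CPEB1, 89.6 and 64.1 CPM with anti-IgG and 96.7 and 92.3 CPM in input. The IgG libraries lay on both sides of the CPEB1 IP libraries (log2 fold change 0.03 ± 0.16 (SE), adjusted p = 0.91). Slc25a20, the carnitine-acylcarnitine translocase, was at 19.6 and 25.4 CPM with anti-CPEB1, 18.2 and 15.3 CPM with anti-IgG and 19.9 and 26.1 CPM in input. Its CPEB1 IP values lay above both IgG values and overlapped input (log2 fold change 0.39 ± 0.30 (SE), adjusted p = 0.353). Both genes tested were uncalled also at an unadjusted p under 0.05 and by DESeq2. Cpt2, which releases acyl-CoA on the inner side, had 8, 24, 10, 2, 23, 31 counts, too few for this test.

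The peroxisomal gene Phyh had the largest difference of the 32 genes tested between CPEB1 IP and IgG. Phyh (chr2:4919019-4938730, plus strand) encodes phytanoyl-CoA hydroxylase, which starts the alpha-oxidation of the branched chain of phytanic acid. Its 3′ UTR carries 2 CPE motifs, whose windows on the plus strand at chr2:4938546-4938575 and chr2:4938568-4938597 (mm10) overlap each other:
Phyh CPE 1: aggaaaaaaatTTTTAACTgagatgatgtt
Phyh CPE 2: atgatgttctctTTTTATcacctgttaaca
Phyh was at 54.2 and 66.7 CPM with anti-CPEB1, 9.87 and 14.6 CPM with anti-IgG and 30.7 and 46.9 CPM in input. The groups did not overlap, with IgG lowest, input between and CPEB1 IP highest. CPEB1 IP was 4.75-fold above IgG (log2 fold change 2.25 ± 0.26 (SE), adjusted p = 3.08e-06), and the adjusted p stayed at or under 7.29e-05 when any 1 library was left out. Acaa1a, a peroxisomal thiolase, was at 127 and 145 CPM with anti-CPEB1, 82.0 and 96.1 CPM with anti-IgG and 168 and 163 CPM in input (log2 fold change 0.55 ± 0.14 (SE), adjusted p = 0.00391). CPEB1 IP lay between IgG and input, and without CPEB1 IP 2 the call was lost (adjusted p = 0.101). Exons of Acaa1a overlap those of Myd88. Hsd17b4, the D-bifunctional protein of peroxisomal oxidation, was at 35.0 and 43.4 CPM with anti-CPEB1, 16.7 and 26.9 CPM with anti-IgG and 56.8 and 66.4 CPM in input (log2 fold change 0.79 ± 0.26 (SE), adjusted p = 0.0213). The call was lost without CPEB1 IP 2 (adjusted p = 0.205) or without IgG 1 (adjusted p = 0.127). Acox3, an oxidase of branched chains, lay the other way at -0.88 ± 0.36 and did not pass (adjusted p = 0.0681).

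None of the acyl-CoA synthetases, which activate fatty acids for all later routes, passed edgeR's test between CPEB1 IP and IgG, with 0 of 4 tested called, 0 at an unadjusted p under 0.05, and 2 (Acsl3 and Acsl4) called higher by DESeq2. Acsl3 and Acsl4 had the highest levels of the family, and they differed from IgG in log2 by 0.23 ± 0.13 (adjusted p = 0.199) and by 0.27 ± 0.15 (adjusted p = 0.167). Acsl1 was at 0.08 ± 0.30 (adjusted p = 0.863) and Acsl5 at -0.09 ± 0.39 (adjusted p = 0.886). Acsl6 had between 5 and 19 counts per library.

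Of the uptake and binding genes, Cd36 and Fabp4 had their lowest levels in input. Cd36 (chr5:17781690-17888801, minus strand) encodes the membrane receptor that takes up long-chain fatty acids, and Fabp4 (chr3:10204088-10208576, minus strand) the binding protein that endothelial cells and adipocytes are known to make in quantity. Both carry CPE motifs and are printed because both were high in CPEB1 IP against input, but only Cd36 was higher than in IgG. For Cd36, the 2 of its 6 motifs nearest to the 3′ end lie at chr5:17782303-17782332 and chr5:17782193-17782222, and for Fabp4 all 3 motifs lie at chr3:10204376-10204405, chr3:10204309-10204338 and chr3:10204248-10204277, each on the minus strand of mm10:
Cd36 CPE 5: ttatttattgtaTTTTATtttgttttttgt
Cd36 CPE 6: attttgttataaTTTTATagcagcagtgtg
Fabp4 CPE 1: tctgaagatgcaTTTTATtggatatggtta
Fabp4 CPE 2: gtgtaatgatacTTTTATtgtgtgtctaat
Fabp4 CPE 3: aaattgcattacTTTTATtttggttctggt
Cd36 was at 103 and 91.4 CPM with anti-CPEB1, 60.8 and 71.4 CPM with anti-IgG and 29.8 and 38.4 CPM in input. The 3 groups did not overlap, in the order CPEB1 IP, IgG, input. CPEB1 IP was 2.95-fold above input (log2 fold change 1.56 ± 0.17 (SE), adjusted p = 4.09e-05) and 1.40-fold above IgG (log2 fold change 0.48 ± 0.15 (SE), adjusted p = 0.0182). The second difference was lost without CPEB1 IP 1 (adjusted p = 0.152), CPEB1 IP 2 (adjusted p = 0.0517) or IgG 1 (adjusted p = 0.0712). Fabp4 was at 147 and 123 CPM with anti-CPEB1, 127 and 122 CPM with anti-IgG and 21.8 and 23.6 CPM in input. Both precipitates were far above input and overlapped each other. Its level was 6.14-fold higher in CPEB1 IP than in input (log2 fold change 2.62 ± 0.17 (SE), adjusted p = 7.81e-07) and 5.47-fold higher in IgG than in input (log2 fold change 2.45 ± 0.22 (SE), adjusted p = 9.4e-12), and between the antibodies it did not pass (log2 fold change 0.04 ± 0.13 (SE), adjusted p = 0.84). The length that the files give for the exons of Fabp4 is the whole span of the gene, 4489 bases, so its introns are counted in the length behind its level per kb. Fabp5, the epidermal-type protein, had between 3.68 and 9.76 CPM with no test passed, and Fabp3, the heart-type protein, had 11, 13, 2, 4, 5, 6 counts, too few for a test.

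Markers of 6 other kinds of cell were summed beside Cd36 and Fabp4, and the sort had selected against CD31 (Pecam1), CD45 (Ptprc) and Sca1 (Ly6a). As sums, endothelial, adipocyte, leukocyte and muscle fibre markers were lowest in input, as Cd36 and Fabp4 were, and those of smooth muscle and pericytes were highest there. Single genes did not always follow the sum of their list. Over all genes tested, 17% were higher and 15.8% lower in CPEB1 IP than in input, and 21.4% and 19.4% in IgG. The 8 endothelial markers summed to 230.0 and 244 CPM in CPEB1 IP, 179 and 215 CPM in IgG and 133 and 132 CPM in input, and 7 of the 8 were higher in CPEB1 IP than in input, and 6 of the 8 in IgG than in input. Over the 8 markers the median log2 fold change from input was 1.67 in CPEB1 IP and 1.28 in IgG, and the median between the antibodies was 0.22. Pecam1 itself had a log2 fold change of 1.58 ± 0.24 and Cdh5 of 2.37 ± 0.33 for CPEB1 IP against input, and no endothelial marker was at 0 in any library. The 6 adipocyte markers summed to 10.4 and 6.81 CPM (CPEB1 IP), 11.4 and 5.83 CPM (IgG) and 2.76 and 1.89 CPM (input), with Plin1, Cidec, Lep and Cfd at 0 in at least 1 library. Adipoq, the 1 of the 6 with counts enough for a test against input, was higher in CPEB1 IP (log2 fold change 1.87 ± 0.54). The 6 leukocyte and macrophage markers summed to 58.7 and 68.1 CPM (CPEB1 IP), 79.8 and 76.5 CPM (IgG) and 38.1 and 23.0 CPM (input), with Ptprc, Adgre1 and Itgam at 0 in at least 1 library. Of the leukocyte markers, 1 of 3 tested (Lyz2) was higher in CPEB1 IP than in input, with a median of -0.04, and 3 of 4 were higher in IgG than in input. The 6 markers of fibro-adipogenic progenitors summed to 708 and 703 CPM (CPEB1 IP), 531 and 472 CPM (IgG) and 530.0 and 513 CPM (input), with 3 of 5 tested higher and 1 lower in CPEB1 IP than in input, and 4 of 6 higher and 1 lower in IgG. By gene, their median log2 fold change from input was 1.25 in CPEB1 IP and 1.37 in IgG. The 8 muscle fibre markers summed to 125 and 157 CPM (CPEB1 IP), 131 and 119 CPM (IgG) and 79.5 and 63.9 CPM (input), with Myh7 at 0 in at least 1 library, and 1 of 5 tested was higher in CPEB1 IP and 2 of 6 in IgG. The 5 smooth muscle and pericyte markers summed to 407 and 409 CPM (CPEB1 IP), 298 and 299 CPM (IgG) and 745 and 878 CPM (input), and 3 of the 5 (Acta2, Rgs5, Pdgfrb) were lower than input in CPEB1 IP and in IgG. The part of these cells in the levels of Cd36 and Fabp4 was not tested. The labels do not say whether a precipitate and an input library came from the same lysate. Differences in the cells of a lysate and in the RNA recovered from it therefore cannot be told apart.

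**Figure D4:**
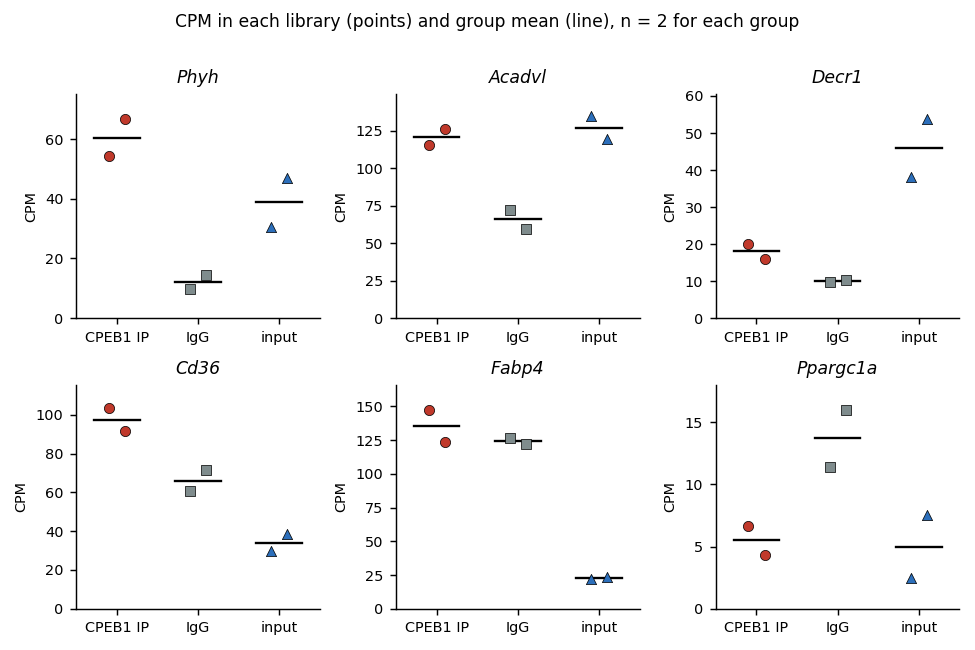
Level in CPM of Phyh, Acadvl, Decr1, Cd36, Fabp4 and Ppargc1a, 1 panel per gene, with a point for each library and a line at the mean of each group. Phyh and Acadvl are low in IgG, Decr1 is high in input, Cd36 and Fabp4 are low in input, and Ppargc1a is highest in IgG.

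The regulators were the only role in which genes were lower in CPEB1 IP than in IgG. Ppargc1a (chr5:51454250-51567726, minus strand) encodes PGC-1alpha, a coactivator that drives mitochondrial and oxidative genes, and its annotated 3′ UTR of 3930 bases was the longest of the 37 and held 12 CPE motifs. The 2 nearest to the 3′ end, on the minus strand at chr5:51454330-51454359 and chr5:51454295-51454324 (mm10), are printed because they lie within 100 bases of it:
Ppargc1a CPE 11: gtattgttgtggTTTTATtcattgtatgaa
Ppargc1a CPE 12: ctgtgatttttTTTTAAATgtgcagtacac
Ppargc1a had 16, 21, 15, 22, 8, 24 counts, which is 6.67 and 4.34 CPM with anti-CPEB1, 11.4 and 16.0 CPM with anti-IgG and 2.46 and 7.56 CPM in input. IgG was the high group and CPEB1 IP overlapped input (log2 fold change -1.44 ± 0.43 (SE), adjusted p = 0.0135 for CPEB1 IP against IgG). Ppargc1b, which encodes PGC-1beta, was at 4.17 and 5.78 CPM with anti-CPEB1, 12.9 and 14.6 CPM with anti-IgG and 14.1 and 10.4 CPM in input, with CPEB1 IP low and IgG close to input (log2 fold change -1.48 ± 0.42 (SE), adjusted p = 0.00997). Both lower calls rested on few reads. They were lost without CPEB1 IP 1 (adjusted p = 0.051 for Ppargc1a and 0.12 for Ppargc1b), without CPEB1 IP 2 (0.233 and 0.0664), without IgG 2 (0.151 and 0.0778), without a filter on low counts (0.148 and 0.133) and with DESeq2 (0.157 and 0.128). The receptor genes used as a gauge moved in the same direction, and the level per length of Ppargc1a was 8.95 and 6.54 times theirs in CPEB1 IP, 2.95 and 3.97 times in IgG and 38.7 and 115 times in input. The part of that background in the Ppargc1a and Ppargc1b levels was not tested. Ppard, the main PPAR receptor of these cells, did not pass (log2 fold change -0.30 ± 0.21 (SE), adjusted p = 0.301), and Ppara had 6, 1, 6, 4, 6, 1 counts.

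The comparison of CPEB1 IP with input asks how a transcript's share of the precipitate compared with its share of the lysate. Of 34 fatty acid genes tested, 3 (8.82%) were higher in CPEB1 IP than in input and 9 (26.5%) were lower, against 17% and 15.8% of the 12171 genes tested. The 3 higher genes were Phyh, Cd36 and Fabp4. The 9 lower genes were Acadm, Acads, Hadh, Echs1, Decr1, Acox3, Hsd17b4, Ppard and Ppargc1b, and the median log2 fold change over the 34 genes was -0.21. Phyh was 1.63-fold higher than input (log2 fold change 0.71 ± 0.21 (SE), adjusted p = 0.02), a difference lost with DESeq2 (adjusted p = 0.0984), without CPEB1 IP 2 (adjusted p = 0.269) and without input 1 (adjusted p = 0.0711). Cd36 and Fabp4, whose values are given above, kept their calls under each alternative.

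The 9 genes lower in CPEB1 IP than in input included 5 mitochondrial enzymes, 2 peroxisomal enzymes and 2 regulators. Decr1 had the largest fall, with log2 fold change -1.32 ± 0.23 (adjusted p = 0.00107), and Echs1 was at 15.4 and 20.0 CPM with anti-CPEB1, 17.5 and 17.5 CPM with anti-IgG and 36.5 and 40.3 CPM in input (log2 fold change -1.03 ± 0.22 (SE), adjusted p = 0.00379). These 2 calls held under each of the 9 alternatives. Acadm was at 38.7 and 30.8 CPM with anti-CPEB1, 22.8 and 28.4 CPM with anti-IgG and 57.7 and 59.8 CPM in input, with both precipitates under input (log2 fold change -0.73 ± 0.18 (SE), adjusted p = 0.00904). Acads was at 14.2 and 11.8 CPM with anti-CPEB1, 12.2 and 8.74 CPM with anti-IgG and 28.8 and 20.2 CPM in input, again with input highest (log2 fold change -0.89 ± 0.28 (SE), adjusted p = 0.0279). Hadh was at 25.4 and 20.6 CPM with anti-CPEB1, 15.2 and 11.7 CPM with anti-IgG and 42.0 and 45.3 CPM in input, and the groups followed the order input, CPEB1 IP, IgG with no overlap (log2 fold change -0.89 ± 0.21 (SE), adjusted p = 0.00545). The falls of Acadm (adjusted p = 0.185) and Hadh (adjusted p = 0.0961) were lost without CPEB1 IP 2, and that of Acads with DESeq2 (0.117) or without any of CPEB1 IP 1 (0.0527), CPEB1 IP 2 (0.175) or input 1 (0.108).

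The peroxisomal Acox3 was at 12.5 and 8.46 CPM with anti-CPEB1, 16.7 and 18.9 CPM with anti-IgG and 19.3 and 20.5 CPM in input (log2 fold change -0.92 ± 0.30 (SE), adjusted p = 0.0302), and its call was lost with DESeq2 (adjusted p = 0.146) and without CPEB1 IP 2 (adjusted p = 0.315). Hsd17b4, higher in CPEB1 IP than in IgG, was lower than in input, with CPEB1 IP between the other groups (log2 fold change -0.58 ± 0.18 (SE), adjusted p = 0.0263 against input). That fall was lost with DESeq2 (adjusted p = 0.0933) and without CPEB1 IP 1 (adjusted p = 0.296) or CPEB1 IP 2 (adjusted p = 0.0556). Ppard was at 33.3 and 38.2 CPM with anti-CPEB1, 47.1 and 37.9 CPM with anti-IgG and 66.9 and 62.0 CPM in input, with input above both precipitates (log2 fold change -0.79 ± 0.18 (SE), adjusted p = 0.00449), a call lost without CPEB1 IP 1 (adjusted p = 0.0806). Ppargc1b fell by 1.20 on the log2 scale (adjusted p = 0.0267), and lost the call with DESeq2 (0.137) or without CPEB1 IP 1 (0.144), CPEB1 IP 2 (0.0543) or input 1 (0.098). Cpt1a (-0.16 ± 0.15, adjusted p = 0.444), Acadvl (-0.02 ± 0.14, adjusted p = 0.939) and Ppargc1a (0.14 ± 0.53, adjusted p = 0.864) did not pass.

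The comparison of IgG with input asks how a transcript's share of the precipitate of the non-specific antibody compared with its share of the lysate. It shares the IgG libraries with the first comparison and the input libraries with the second, so the 3 sets of fold changes are not independent. Of 33 fatty acid genes tested, 3 (9.09%) were higher in IgG than in input and 18 (54.5%) were lower, against 21.4% and 19.4% of the 12980 genes tested. Of the 23 oxidation and carnitine shuttle genes tested, 16 were lower and 0 higher, with a median log2 fold change of -0.90, all 23 below 0, 0 higher at an unadjusted p under 0.05 and 0 called higher by DESeq2. All 4 acyl-CoA dehydrogenases and all 5 genes of the later steps were among the 16. Decr1 had the largest fall (log2 fold change -2.19 ± 0.34 (SE), adjusted p = 1.82e-06), followed by Hadh at -1.70 ± 0.32 (adjusted p = 3.41e-05) and Phyh at -1.66 ± 0.34 (adjusted p = 0.000155). Fabp4, Cd36 and Ppargc1a were the 3 higher genes, and of these Fabp4 alone held its call under each alternative. Of the 18 lower calls 10 held under each alternative. Leaving out 1 library ended those of Acadl (without IgG 1, IgG 2 or input 2), Acads (IgG 2 or input 1), Eci2 (IgG 2 or input 2), Ech1 (IgG 2), Etfa (IgG 1, IgG 2 or input 2), Acsl3 (IgG 1) and Ppard (IgG 1, IgG 2 or input 1), and the higher call of Ppargc1a (IgG 2 or input 1), with adjusted p between 0.0535 and 0.362. With DESeq2 1 of the 36 genes with an adjusted p was higher and 12 were lower. Over all genes with an adjusted p it called 1056 (5.20%) higher and 1560 (7.68%) lower, against 2772 (21.4%) and 2515 (19.4%) with edgeR.

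Since the comparisons share libraries, their values are given side by side for 2 genes and overlaps between their calls are not. Acadvl had log2 fold changes of 0.82 ± 0.15 between CPEB1 IP and IgG, -0.02 ± 0.14 between CPEB1 IP and the lysate input, and -0.95 ± 0.19 between IgG and that input. For Phyh the same 3 values were 2.25 ± 0.26, 0.71 ± 0.21 and -1.66 ± 0.34. Summed over the 24 oxidation and carnitine shuttle genes, the level was 1323 and 1419 CPM in CPEB1 IP, 938 and 865 CPM in IgG and 1520 and 1673 CPM in input, so the IgG libraries stood lowest and did not overlap the others. The receptor genes had the reverse order, as given above, and their part in the lower IgG share was not tested.

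The study's own rule for a CPEB1-associated transcript asks that FPKM in CPEB1 IP be more than 2 times that in IgG in both experiments, together with an adjusted p under 0.05 from DESeq2. Here the ratio was computed on FPKM + 1, with libraries of the same number taken as 1 experiment, and the test was edgeR's with DESeq2 beside it. With edgeR 10 of the 37 fatty acid genes met it, the 11 higher genes without Hadha, and over the 12124 genes tested 12.1% did. With DESeq2, the test of the study, 11 of the 37 met it, the same 10 and Eci1, among 1561 genes in all, which is 8.3% of the genes with an adjusted p from DESeq2. Hadha had ratios of 1.70 and 2.95 in the 2 experiments. Eci1 passed the ratio in both, at 2.19 and 2.23, and passed the test with DESeq2 but not with edgeR after the filter on low counts. The ratios of Phyh, 6.33 and 6.19, were the highest of the 37 genes. The count depended strongly on the library total behind FPKM, since with FPKM rebuilt from TMM library sizes only Phyh remained among the 37 genes and 76 genes in all.

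CPE motifs were searched in the 3′ UTRs of GENCODE M21 transcripts on mm10, on the RNA strand only. The 9 motifs, written as DNA, were the canonical TTTTAT or TTTTAAT and the others TTTTACT or TTTTCAT or TTTTAAAT or TTTTAACT or TTTTAAGT or TTTTAATT or TTTTAAAGT. The motif TTTTAATT holds TTTTAAT within it, and such a match was counted as 1 site. At least 1 motif was found in 22 of the 37 genes (59.5%, exact 95% Clopper-Pearson interval 42.1% to 75.2%) and a canonical motif in 18 (48.6%), against 8242 of the 12124 genes tested (68.0%) and 61.3% for canonical motifs. An annotated 3′ UTR was found for all 37 genes and for 10889 of those tested, of which 75.7% held a motif, and of the 32 fatty acid genes tested 21 (65.6%) did. Among the 11 genes higher in CPEB1 IP than in IgG, 5 held a motif (45.5%, interval 16.7% to 76.6%), namely Acadl, Etfa, Hsd17b4, Phyh and Cd36. Both lower genes held one, and of the 19 genes tested and not called 14 did (73.7%, interval 48.8% to 90.9%). In the last 100 bases of a 3′ UTR a motif was found in 13 of the 37 genes (35.1%) and in 33.4% of all genes tested. Of the 11 higher genes 1 had such a motif (Etfa, 9.09%, interval 0.23% to 41.3%, which includes the share of all genes). The windows of Acadl, Etfa, Phyh and Cd36 printed above are of transcripts higher in CPEB1 IP than in IgG, and those of Fabp4 and Ppargc1a are of transcripts that were not.

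Annotated lengths are set beside these counts, and their part in the shares was not tested. The longest annotated 3′ UTR of each gene was taken, with a median of 555 bases over the 37 genes and 1273.5 bases over 10876 genes tested. The median was 325 bases over the 11 higher genes and 747 bases over the 19 not called. The 6 higher genes without a motif, Acadvl, Hadha, Hadhb, Acaa2, Etfb and Acaa1a, included Hadha with a 3′ UTR of 1511 bases, and the others ranged from 60 to 505 bases. A match is a description of the letters in the annotated 3′ UTR, and use of these sites in satellite cells was not measured.

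**Figure D5:**
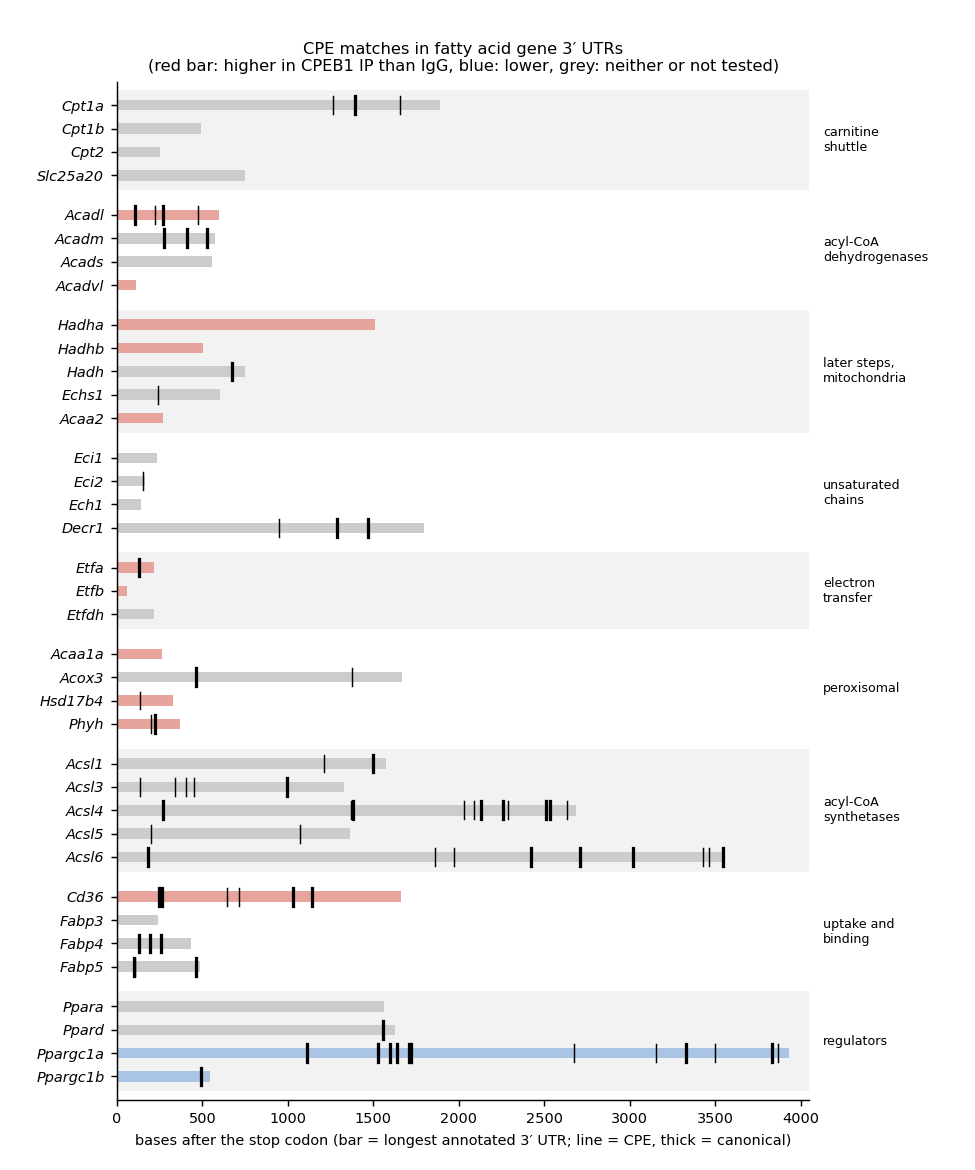
Longest annotated 3′ UTR of each of the 37 genes as a bar from the stop codon, in bases. A line marks each CPE motif and a thick line a canonical one. Red bars are genes higher and blue bars genes lower in CPEB1 IP than in IgG. Most red bars are short, and Ppargc1a has the longest bar, 3930 bases, with 12 motifs.

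Other genes of fatty acid oxidation, which were not among the 37, were counted in the same way. Of a list of 44, 43 were in the tables and 30 were tested between CPEB1 IP and IgG, where 4 were higher (among them Hsd17b10, Acat1 and Acot9) and 2 lower (Acad12, Acot7), with a median log2 fold change of 0.12. These shares, 13.3% and 6.67%, stand beside 14.7% and 18.7% over all genes. Acat1, the mitochondrial acetoacetyl-CoA thiolase, was at 78.7 and 60.9 CPM with anti-CPEB1, 38.0 and 34.2 CPM with anti-IgG and 115 and 157 CPM in input (log2 fold change 0.86 ± 0.20 (SE), adjusted p = 0.00195). Acot7, a cytosolic thioesterase that releases free fatty acids, was lower at 4.58 and 4.13 CPM with anti-CPEB1, 11.4 and 10.9 CPM with anti-IgG and 2.76 and 4.41 CPM in input (log2 fold change -1.43 ± 0.44 (SE), adjusted p = 0.016). Against input, 1 of 33 tested genes of this list was higher in CPEB1 IP and 12 were lower, with a median of -0.63, and for IgG 1 of 35 was higher and 15 were lower, with a median of -0.80. The higher shares were 3.03% and 2.86%, beside 17% and 21.4% over all genes, and the lower shares 36.4% and 42.9%, beside 15.8% and 19.4%.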

How the data were processed

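RIP-seq libraries were made with SMART-Seq2 and sequenced as paired reads of 75 bases. The authors mapped reads to mm10 with HISAT 2.1.0, sorted them with Samtools 1.9 and counted them on genes with featureCounts 1.5.1, and they deposited raw counts per gene with exon lengths. The annotation release and strand setting are not given in the sources used here. The authors also deposited FPKM, which divides counts by gene length and a library total. The IgG libraries were in tables of their own.

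Counts of each pair of groups were filtered with filterByExpr, scaled by TMM and tested with edgeR 4.0.16 (glmQLFTest, R 4.3.3) over all genes, with Benjamini-Hochberg adjustment and a threshold of 0.05. The SE is the absolute log2 fold change divided by the square root of F. With 2 libraries per group, the p-values of edgeR weigh a difference against the spread between these libraries, moderated over all genes tested. DESeq2 1.42.0, RLE scaling, no filter, the replicate number as a block, all 6 libraries in 1 fit and each library left out were the alternatives. A library left alone in its group is assumed to vary like the other group. FPKM were compared with a pseudocount of 1.

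CPE motifs came from the study's list of CPE-containing transcripts as far as it was held. Intervals cover counting error only. Python 3.11.15 was used for the rest. Genes were printed with all values where they passed a test of CPEB1 IP, with Cpt1a, Acadvl, Cd36, Fabp4 and Ppargc1a added. From other lists, at most 2 called genes per direction with a mean FPKM over 1 were printed. A gene that this rule would name is not reported here. The statistics were tested on simulated data. Genes, lists and tests were chosen with earlier results of these data known.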

Additional observations from a re-analysis of the deposited data

How the results depend on the processing

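Between CPEB1 IP and IgG the 11 higher genes of 32 tested became 18 of 37 without a filter on low counts and 15 of 36 with DESeq2. The 2 lower genes became 0 under both. Between CPEB1 IP and input the 9 lower genes became 5 with DESeq2. Over all genes, the lower share there was 15.8% with edgeR and 11.2% with DESeq2. Between IgG and input the 3 higher genes became 1 with DESeq2 and 1 without a filter. Over all genes, that higher share was 21.4% with edgeR, 5.20% with DESeq2 and 10.3% without a filter. The 10 genes that met the FPKM ratio and the test became 6 with a pseudocount of 5 and 1 with TMM library sizes. Over all genes tested, 12.1% met both, and these settings gave 5.55% and 0.627%. When each library was left out in turn, the counts ranged from 6 to 11 (higher than IgG), 0 to 2 (lower than IgG), 2 to 5 (higher than input), 3 to 10 (lower than input), 2 to 3 (IgG higher than input), 13 to 16 (IgG lower than input) and 6 to 11 (FPKM ratio and test). The cause of these changes was not tested. With the replicate number as a block, the counts were 11 and 2, 3 and 9, 3 and 18, and 10, as without it. The labels do not say whether a number ties libraries across groups, and the study's ratios are per experiment. The deviations of same-numbered libraries correlated at -0.0108, -0.0245 and 0.0325 over 14276 genes. Over all genes, the counts higher and lower than IgG ranged from 1054 to 3513 and from 677 to 2336. Of single-gene values under an alternative, 760 kept their direction and side of the threshold, 68 fell below the threshold, 23 rose above it and 40 changed sign without being called under either setting, among them Acsl5 and Echs1 between CPEB1 IP and IgG. No called value changed sign. Depth limits the low genes most: 5 of the 37 had too few counts to be tested between CPEB1 IP and IgG, and 3 counts in the shallowest library correspond to 2.28 CPM.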

Other observations

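Of 31 genes of fatty acid synthesis and elongation, 24 were tested between CPEB1 IP and IgG, where 5 were higher (Fasn, Acly, Elovl1, Hacd1, Tecr) and 1 lower (Fads2), with a median log2 fold change of 0.03. These shares, 20.8% and 4.17%, stand beside 14.7% and 18.7% over all genes. Fasn, fatty acid synthase, was at 245 and 261 CPM with anti-CPEB1, 129 and 138 CPM with anti-IgG and 264 and 239 CPM in input, so that CPEB1 IP was above IgG and overlapped input (log2 fold change 0.86 ± 0.11 (SE), adjusted p = 1.28e-05). Tecr, the reductase of the elongation cycle, was at 119 and 119 CPM with anti-CPEB1, 64.6 and 63.4 CPM with anti-IgG and 161 and 185 CPM in input (log2 fold change 0.83 ± 0.14 (SE), adjusted p = 0.000164), and Fads2, a desaturase, was lower at 18.3 and 16.1 CPM with anti-CPEB1, 31.9 and 25.5 CPM with anti-IgG and 55.2 and 42.8 CPM in input (log2 fold change -0.82 ± 0.28 (SE), adjusted p = 0.0291). Against input, 2 of 26 genes (7.69%) were higher in CPEB1 IP and 10 (38.5%) lower, beside 17% and 15.8% over all genes. For IgG 1 of 24 (4.17%) was higher and 12 (50%) lower, beside 21.4% and 19.4% over all genes.

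Of 35 genes of fatty acid transport, activation and lipolysis, 17 were tested between CPEB1 IP and IgG, where 4 (23.5%) were higher (Dbi, Lpl, Mgll, Plin2) and 0 lower, with a median of 0.20. Over all genes, 14.7% were higher and 18.7% lower. Lpl, lipoprotein lipase, was at 115 and 123 CPM with anti-CPEB1, 43.3 and 53.2 CPM with anti-IgG and 111 and 140.1 CPM in input (log2 fold change 1.24 ± 0.16 (SE), adjusted p = 8.94e-06), and Mgll, which splits monoacylglycerol, was at 65.8 and 60.1 CPM with anti-CPEB1, 31.9 and 37.9 CPM with anti-IgG and 53.1 and 57.6 CPM in input (log2 fold change 0.77 ± 0.19 (SE), adjusted p = 0.00354). Of 27 PPAR partners and targets, 22 were tested, with 3 higher (Pdk4, Ucp2, Angptl4), 1 lower (Prkab2) and a median of 0.19. Their shares, 13.6% higher and 4.55% lower, stand beside the same 14.7% and 18.7%. Angptl4, a PPAR target that inhibits lipoprotein lipase, was at 398 and 393 CPM with anti-CPEB1, 223 and 239.6 CPM with anti-IgG and 102 and 113 CPM in input (log2 fold change 0.71 ± 0.10 (SE), adjusted p = 2.82e-05). Pdk4, which blocks pyruvate entry into the citrate cycle, was at 139.6 and 163 CPM with anti-CPEB1, 99.5 and 115 CPM with anti-IgG and 106 and 116 CPM in input (log2 fold change 0.44 ± 0.13 (SE), adjusted p = 0.013). Prkab2, a subunit of AMP-activated kinase, was lower (log2 fold change -0.29 ± 0.10 (SE), adjusted p = 0.0332).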
